A study of Ovis aries with 9 samples.

Results

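GA-017 (GA) was compared with no treatment (Con) in primary rumen epithelial (RE) cells of sheep, in 3 wells per group. The genes described are those that reached 1 CPM (read counts divided by the total of their library, on a scale of 1000000) in each Con library or in each GA library, which left 11334 of the 25962 gene identifiers in the table. The cells had been isolated from newborn Hu lambs and were wild type. GA wells received 10 μM GA-017 for 24 h, and Con wells were cultured alike without it. Both groups shared a medium with 2% FBS, epidermal growth factor, hydrocortisone, insulin, transferrin, cholera toxin and triiodothyronine. GA-017 was dissolved in DMSO while Con is labelled as untreated, so the compound and its solvent cannot be told apart. The sources do not give the number of lambs, and the replicates were wells of cultured cells, so the p-values measure the spread between wells, which may be technical. The series also holds 3 verteporfin wells, which were not used here.

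The rumen is lined by a stratified squamous epithelium in which cells divide in the basal layer and differentiate as they move through the spinous and granular layers to the horny surface. YAP1 and TAZ are transcriptional co-activators that enter the nucleus when the kinases of the Hippo pathway do not phosphorylate them, and there they bind TEAD proteins and switch on genes of growth and adhesion. GA-017 is used to keep both proteins unphosphorylated and nuclear. The comparison asks which transcripts change in RE cells treated with GA-017. The paper states that it had no direct evidence that YAP1/TAZ were activated in these cells. In RNA from whole wells, fewer cells of a type and less RNA per cell cannot be told apart.

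The table gives Ensembl identifiers, which the files do not pair with symbols, and 0 of them matched the RefSeq gene table at hand. Members of the Hippo, Wnt or calcium pathways and the markers that would check the labelled cell type were therefore not analysed here. The results below describe the size, the direction and the evenness of the response over all tested genes, and identifiers are given for 2 genes in each direction. Libraries held between 14458606 and 15576179 counts in Con and between 15074302 and 15469058 in GA, and the deepest was 1.08 times the shallowest. Depth was therefore nearly even, and the tested genes took 99.9% of all counts.

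GA lowered more genes than it raised once a change had to exceed 2-fold. With edgeR's quasi-likelihood test, GA had 230 upregulated and 647 downregulated genes at FDR < 0.05 and |log2 fold change| > 1 (differentially expressed genes, DEGs). These were 2.03% and 5.71% of the tested genes. Upregulated genes were thus 26.2% of the 877 DEGs. At FDR < 0.05 alone the directions were nearly balanced, with 1954 genes higher (17.2%) and 2202 lower (19.4%), which is 36.7% of the tested genes in all, and 47.0% of these rose. The other 7178 genes did not pass FDR < 0.05.

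Among all tested genes at FDR < 0.05, the share that fell was larger in classes of larger change. Among genes at FDR < 0.05 that changed by less than 1.5-fold, 1229 rose and 963 fell in GA. Between 1.5-fold and 2-fold there were 495 higher and 592 lower genes. From 2-fold to 4-fold the numbers were 185 and 476, from 4-fold to 8-fold 34 and 126, and over 8-fold 11 and 45. Among genes at FDR < 0.05, small changes were thus more often rises, and changes above 1.5-fold were more often falls. Of the genes past 2-fold, 64 higher and 227 lower ones reached 1 CPM in the wells of a single group. The filter fixed the side of these genes, and the classes were not recomputed without them. For the larger classes, the growing share of falls therefore cannot be told apart from an effect of the filter. A small change passes FDR only where its SE is small. The median SE was 0.26 in the lowest and 0.08 in the highest quartile of genes by mean level, and size and level were not separated here. Upregulated DEGs had a median log2 fold change of 1.33 and downregulated DEGs one of -1.48, against -0.01 over all tested genes. Of the downregulated DEGs, 2 had 0 counts in all GA wells, and placing these at their lower bounds left the median at -1.48 and the number over 8-fold at 45.

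The 2-fold limit cut through a continuous range of values. The smallest log2 fold change among the upregulated DEGs was 1.0005, and the largest among the higher genes left out was 0.999. For the downregulated DEGs the nearest values were -1.0004 inside and -0.996 outside the limit. Between log2 fold changes of 1 and 1.1 lay 54 of the upregulated and 94 of the downregulated DEGs, and 62 higher and 94 lower genes at FDR < 0.05 lay between 0.9 and 1.

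**Figure D1:**
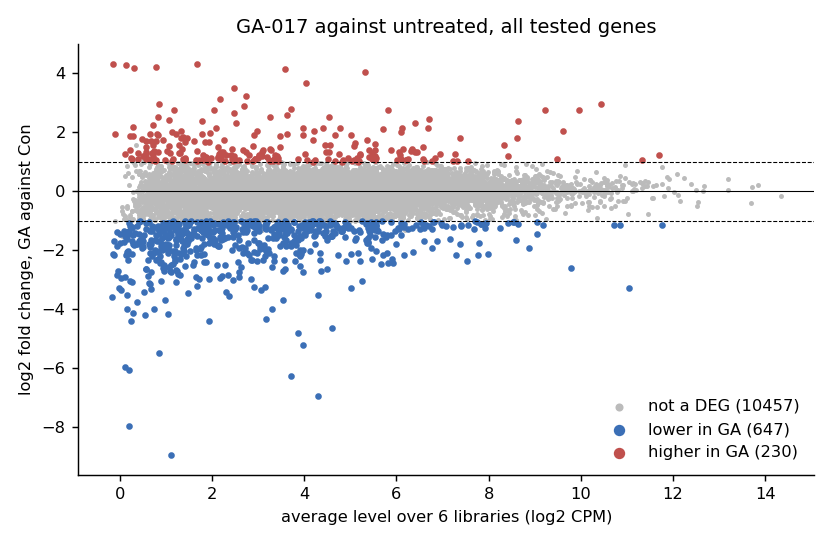
Each point is a tested gene, with its average level over the 6 libraries in log2 CPM on the x axis and its fitted log2 fold change of GA against Con on the y axis; red points are the 230 upregulated and blue points the 647 downregulated DEGs, and dashed lines mark a 2-fold change. Blue points outnumber red ones and reach farther from 0, most of all at low levels, and the values of the 2 genes with 0 counts in every GA well depend on the prior count of the fit.

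At nearly all DEGs the wells of the groups did not overlap. All 3 GA libraries lay above all 3 Con libraries in 228 of the 230 upregulated DEGs, and below them in 643 of the 647 downregulated ones. Over all tested genes, GA lay wholly above Con in 2547 genes (22.5%) and wholly below in 2796 genes (24.7%).

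The 2 upregulated identifiers with the largest log2 fold changes, taken among DEGs whose groups did not overlap, both came from low levels. ENSOARG00020023000 had 4, 6 and 3 counts in the Con wells and 59, 123 and 86 counts in the GA wells. The GA wells spread widely, from 59 to 123 counts. Its level was 0.284 ± 0.095 CPM in Con and 5.88 ± 2.15 CPM in GA (SD, n = 3), and its log2 fold change was 4.33 (SE 0.41, FDR = 2.11e-06, by the edgeR test above, whose FDR is adjusted after Benjamini and Hochberg over all tested genes). ENSOARG00020008720 had 2, 1 and 0 counts in Con and 21, 19 and 27 counts in GA. It was near the limit of detection in Con and low in GA. The filter admitted both identifiers through GA, the group where they were high, so their side is no support for a direction. For ENSOARG00020008720, summed over wells, 3 counts in Con stood against 67 in GA, a ratio of 22.3 after scaling to library size. Its exact binomial 95% interval was 7.33 to 111, which covers counting error only (FDR = 7.78e-05 from the same edgeR test).

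The 2 downregulated identifiers with the largest log2 fold changes disappeared from the GA libraries. ENSOARG00020006419 had 59, 71 and 54 counts in Con and 0 in each GA well. Against a floor of 3 counts per library the fall was at least 20.4-fold (FDR = 1.19e-06, edgeR). ENSOARG00020013288 had 27, 34 and 32 counts in Con and again 0 in each GA well. It was at least 10.3-fold lower (FDR = 1.18e-05, edgeR). Both genes were expressed evenly and at low levels in Con, at 4.03 ± 0.503 and 2.04 ± 0.265 CPM (SD, n = 3). The filter admitted both through Con, the group where they were high, so their side is no support for a direction.

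**Figure D2:**
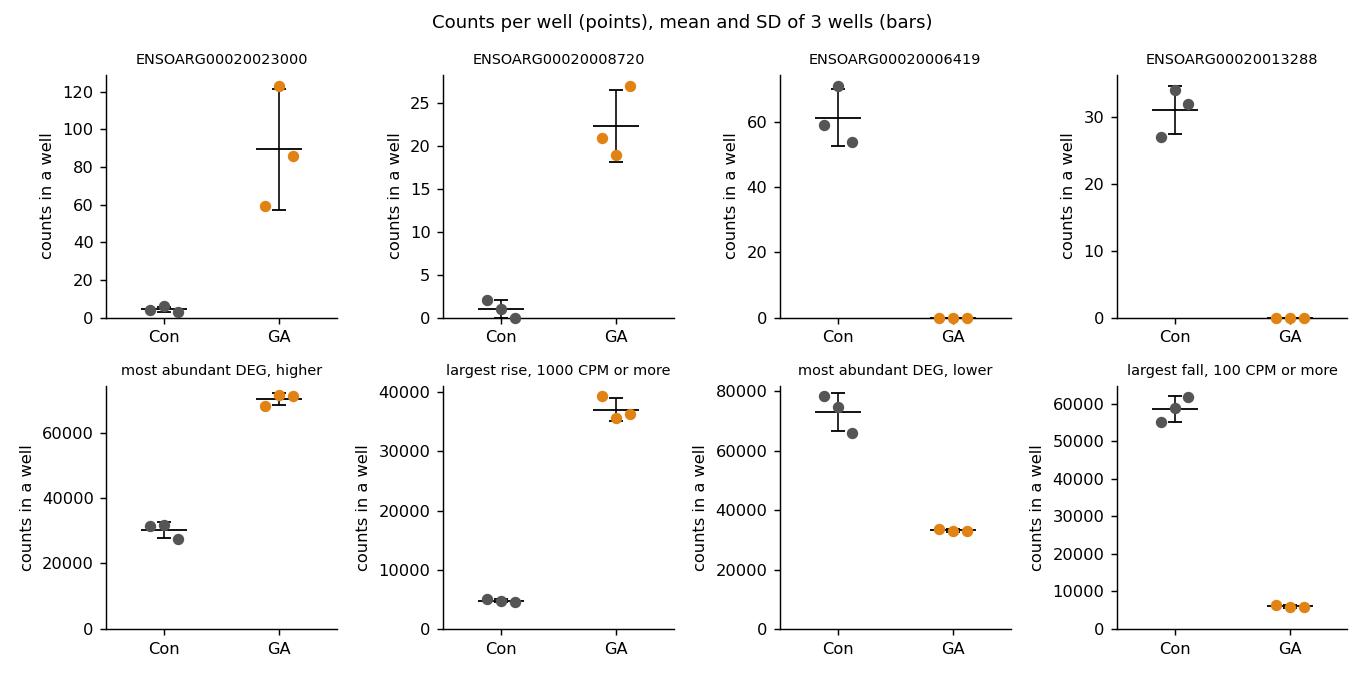
Counts in each well (points) are shown for the 4 identifiers (upper row) and for 4 abundant DEGs (lower row), with Con on the left and GA on the right. The lower genes were picked by level, or by the largest change above a minimum level. Horizontal bars are means and whiskers are SDs of 3 wells, and every y axis starts at 0. The upper genes were chosen among DEGs without overlap between groups and the lower ones after their values were seen, so the panels show levels and the spread between wells, such as 59 to 123 counts in GA for ENSOARG00020023000.

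Large and abundant changes were also present. The DEGs described here by their rank were chosen after their values were seen, and their identifiers are not printed. The most abundant upregulated DEG had 31544, 31681 and 27445 counts in the Con wells and 68188, 71472 and 71117 counts in the GA wells. It took 0.2% of all counts in Con and 0.458% in GA, and its log2 fold change was 1.22 (SE 0.06, FDR = 2.97e-09, edgeR). Among upregulated DEGs with at least 1000 CPM in GA, the largest rise was from 312 ± 9.03 to 2438 ± 127 CPM (SD, n = 3). This gene had 5013, 4743 and 4482 counts in Con and 39325, 35655 and 36242 in GA, which is 2.97 higher on the log2 scale (SE 0.06, FDR = 2.32e-12, edgeR). Among those with at least 50 CPM in GA, the largest rise was 16.4-fold, from 62, 85 and 60 counts in Con to 1176, 1126 and 1102 counts in GA (FDR = 4.57e-11, edgeR). In each of these genes the difference between groups was many times the spread between wells.

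Abundant transcripts fell as well. The most abundant downregulated DEG had 78516, 74709 and 66006 counts in Con and 33687, 32936 and 32977 in GA, a change of -1.14 on the log2 scale (SE 0.06, FDR = 5.68e-09, edgeR). Among downregulated DEGs with at least 100 CPM in Con, the largest fall was from 3854 ± 339 to 395 ± 24.1 CPM (SD, n = 3). The wells of this gene held 55113, 58708 and 61810 counts in Con and 6427, 5706 and 5873 in GA, which is 9.77-fold lower (FDR = 2.32e-12, edgeR). The groups did not overlap in either gene.

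The DEGs together carried a small part of the transcriptome. As a description of genes chosen by this same contrast, the upregulated DEGs took 0.858% ± 0.0148 of the counts in Con and 2.48% ± 0.0389 in GA (SD, n = 3). The downregulated DEGs took 3.92% ± 0.0213 in Con and 1.39% ± 0.0078 in GA (SD, n = 3). Within a group these shares were nearly the same in every well, with 2.44% to 2.51% for the upregulated DEGs in GA and 3.91% to 3.95% for the downregulated DEGs in Con. The median downregulated DEG stood at 8.77 CPM in Con and 2.61 CPM in GA. The median upregulated DEG stood at 3.66 CPM in Con and 11.0 CPM in GA, while the median of all tested genes was 24.1 CPM in Con and 23.5 CPM in GA.

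With TMM normalization, the balance of rises and falls differed between levels of expression. The tested genes were split into quartiles by their mean level over all 6 libraries. In the lowest quartile, up to 8.50 CPM, there were 123 upregulated and 375 downregulated DEGs (4.34% and 13.2% of its 2834 genes). Of these, 63 upregulated and 221 downregulated DEGs reached 1 CPM in the wells of a single group, so the filter admitted them through the group where they were high, and 60 and 154 DEGs remain without them. In the second quartile there were 36 upregulated and 139 downregulated DEGs, and in the third 31 and 71. In the highest quartile, above 62.6 CPM, there were 40 and 62 (1.41% and 2.19%). At FDR < 0.05 alone, the lowest quartile had 218 higher and 538 lower genes, whereas the highest had 824 higher and 601 lower genes. The median log2 fold change went from -0.13 in the lowest through -0.03 and 0.02 to 0.05 in the highest quartile. The counts at FDR < 0.05 and these medians include the genes that passed the filter in a single group, 580 of them in the lowest quartile. They were not recomputed without such genes, so for that quartile they cannot be told apart from an effect of the filter.

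Precision differed with level, and the median SE of the log2 fold change was 0.26 in the lowest quartile and 0.08 in the highest. The median size of the log2 fold change was 0.38 in the lowest and 0.23 in the highest quartile. With cyclic loess normalization, which removes a trend of fold change over level and was tried after the values were seen, the lowest quartile had 172 upregulated and 279 downregulated DEGs. From the lowest to the highest quartile, the share of DEGs that rose was then 38.1%, 24.9%, 28.3% and 34.6%, where TMM gave 24.7%, 20.6%, 30.4% and 39.2%. With cyclic loess the lowest quartile thus no longer had a smaller share of rises than the highest. From the second to the highest quartile the share still grew. This fit also replaced the edgeR test with limma-trend on log2 CPM, so normalization and test cannot be told apart. Falls outnumbered rises in each quartile with cyclic loess, with DESeq2 and without scaling beyond library size.

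**Figure D3:**
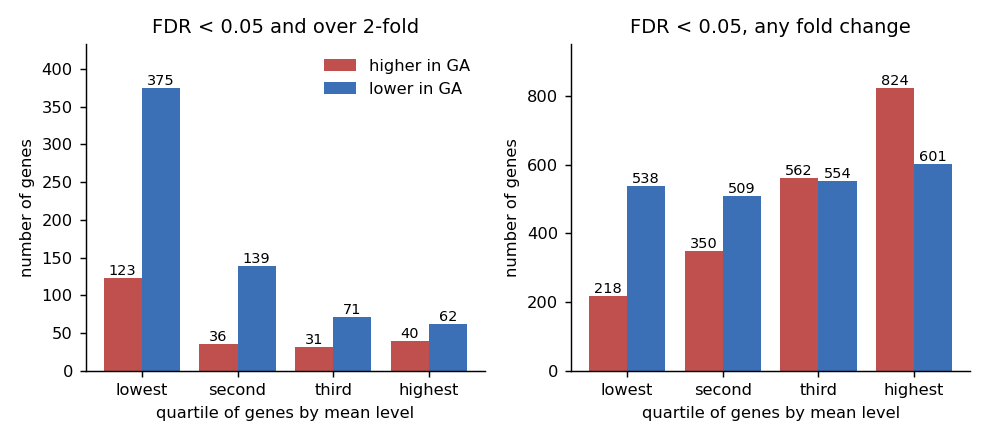
Bars give the number of genes higher (red) or lower (blue) in GA in each quartile of the tested genes by mean level, for DEGs past 2-fold (left) and for all genes at FDR < 0.05 (right). Downregulated DEGs exceed upregulated ones in all 4 quartiles, by 375 to 123 in the lowest, where 221 and 63 of them passed the filter through a single group. Without the fold limit the highest quartile holds 824 higher and 601 lower genes.

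Changes of the most abundant transcripts were mostly small, as in the highest quartile as a whole. The 100 most abundant genes over the 6 libraries, all at 1322 CPM or more on average, took 30.7% of the counts in Con and 31.3% in GA. Of these, 44 rose and 25 fell at FDR < 0.05 (edgeR), and 31 did not pass. The 69 genes that passed stand beside 36.7% of all tested genes and 50.3% of the highest quartile. Past 2-fold there were 3 upregulated and 4 downregulated DEGs, that is 7% of them, where 7.74% of all tested genes were DEGs. In the highest quartile 1.41% of genes were upregulated and 2.19% downregulated DEGs. The median size of log2 fold change of the 100 genes was 0.24, against 0.23 in the highest quartile.

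Few genes were switched on or off. Both groups expressed 10745 genes at 1 CPM or more in all 3 wells, or 94.8% of the tested genes. A further 418 genes passed this minimum in Con only, and 171 in GA only. The genes that passed in Con only had a median of 2.04 CPM in Con and 0.979 CPM in GA, and 227 of them were among the downregulated DEGs. The genes that passed in GA only had a median of 1.89 CPM in GA and 1.15 CPM in Con, and 64 of them were among the upregulated DEGs. As the filter fixes the side on which such genes are high, these counts are no support for a direction. The remaining 191 and 107 genes passed in a single group without being DEGs. Among the 10745 genes expressed in both groups, a restriction chosen after the values were seen, 166 were upregulated and 420 downregulated DEGs, so that 28.3% of these rose. At most 3 counts in every GA well, with at least 1 CPM in every Con well, were found for 10 genes, and the highest of these reached 4.05 CPM in Con. The reverse was found for 1 gene, at 1.46 CPM in GA, which was ENSOARG00020008720.

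Wells of a group were not equally alike. In units of log2 CPM over all tested genes, the distance between libraries was 28.4 from well 1 to well 2 of Con and 29.3 from well 2 to well 3 of GA. Well 3 of Con lay 35.9 and 33.1 from the others of its group, and well 1 of GA lay 40.3 and 41.5 from the others. Between the groups the distance was 69.1 to 74.0. The difference between groups was therefore larger than any within a group. The SD between wells was larger in GA than in Con for 55.8% of the genes, with a median SD of 0.127 log2 units in Con and 0.146 in GA. Over the 11334 genes, the deviations of well 3 of Con and of well 1 of GA from their group means correlated with r = 0.31, a description over genes, which are not independent replicates. This was the highest such value between a Con and a GA well, and the lowest was -0.30. As deviations within a group sum to 0, these values cannot show a shift shared by 2 wells. Without well 3 of Con and well 1 of GA, a fit chosen after the values were seen gave 282 upregulated and 700 downregulated genes. Of these, 203 and 601 were DEGs with all wells.

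Each library was also set against genes that were called without it. DEGs were called from the other 5 libraries, and the left-out library was compared with the mean of the opposite group, whose libraries had entered the call as well. Left out in turn, the GA libraries from well 1 to well 3 lay past 2-fold above Con in 167 of 276, 179 of 235 and 182 of 216 genes called as upregulated. That is 60.5% in well 1 of GA against 76.2% and 84.3% in the other wells, over gene sets that differ, and the difference between wells was not tested. Between 2.02% and 2.56% of all genes lay so far above Con in these libraries. For genes called as downregulated, 519 of 683, 521 of 652 and 521 of 644 lay past 2-fold below Con, or 76.0%, 79.9% and 80.9%, where 6.06% to 6.45% of all genes did.

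The direction was kept almost throughout. Well 1 of GA lay above the Con mean in 268 of 276 genes called higher without it, and below in 669 of 683 called lower. For Con, the left-out libraries were on the called side in 240 of 243, 214 of 215 and 241 of 244 genes called higher in GA, and in 653 of 661, 645 of 650 and 636 of 639 called lower. Over all genes tested in each fit, 46.5% to 51.3% had a log2 ratio of GA to Con above 0. As the libraries of the opposite group had entered the calls, these counts are not an independent test. The median log2 ratio in a left-out library was between 1.14 and 1.37 for higher genes and between -1.48 and -1.40 for lower genes, while over all genes it was between -0.04 and 0.01.

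**Figure D4:**
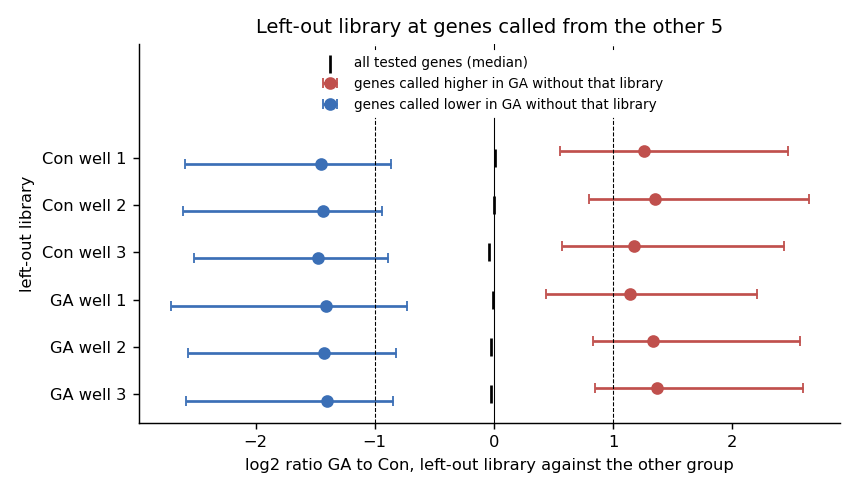
For each left-out library (rows), points give the median and whiskers the 10th to the 90th percentile of the log2 ratio of GA to Con, taken between that library and the mean of the opposite group, at genes called higher (red) or lower (blue) without it; black ticks are medians of all tested genes and dashed lines mark 2-fold. Red medians lie between 1.14 and 1.37, lowest for well 1 of GA, and blue medians between -1.48 and -1.40, while black ticks stay near 0.

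A few genes were counted in part of the wells of a group only. With 0 counts in a well and at least 50 counts in another well of the same group, there were 6 such genes in Con and 11 in GA, or 14 in either. Well 1 alone had 0 counts in 3 of the 6 genes in Con and in 6 of the 11 in GA, and the highest count was 1911 in a single well of GA. Only 5 of the 14 passed the filter on low counts, and 0 of them were DEGs by edgeR, DESeq2 or limma-voom, with 0 at an unadjusted p under 0.05 in edgeR.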

How the data were processed

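RNA-seq was done on 3 Con and 3 GA wells. Read filtering (CASAVA 1.8) and mapping to the sheep assembly Oar_rambouillet_v1.0 (HISAT2) were done by the authors, and the deposited values are raw counts of each gene in each library, with no normalization or pooling. The counting tool and annotation are not given in the sources used here. Every column of counts was assigned to a sample by its name.

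Genes with at least 1 CPM (column totals) in all 3 libraries of Con or GA were tested with edgeR 4.0.16 (R 4.3.3) by glmQLFit and glmQLFTest on TMM-normalized counts of these 6 libraries, with Benjamini-Hochberg adjustment over all 11334 genes. The thresholds were those of the study, which used DESeq2. The SE is the log2 fold change over the square root of F. Named identifiers are the 2 DEGs in each direction with the largest log2 fold change whose groups did not overlap. Log2 CPM used a prior count of 2, and 3 counts are 0.193 to 0.207 CPM. The gene set, lists and tests were chosen with earlier results of these data known. Wells share only a number, so no block was used. In every pair of wells of a group, the chi-square of the counts was at least 2.92 times its degrees of freedom, above the level of sampling noise, and all 6 libraries were kept as separate samples.

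The test was checked on simulated counts before use. There edgeR recovered 99 of 100 genes changed 4-fold and 91 of 100 changed 2.5-fold, with 1 false call. The simulation raised as many genes as it lowered, so it does not bear on the balance of rises and falls. Alternatives used DESeq2 1.42.0 and limma 3.58.1.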

Additional observations from a re-analysis of the deposited data

How the results depend on the processing

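Of 30 recomputed counts, leaving aside fits without a single library, 26 stayed within 1.5 times the reported number. The exceptions concern the fold limit. At FDR < 0.05 alone, 1954 genes were higher and 2202 lower in GA, and with glmTreat against a log2 fold change of 1 there were 80 and 269, as each rule admits more or fewer genes by construction. DESeq2 gave 227 upregulated and 626 downregulated genes, of which 221 and 626 were DEGs by edgeR. With 1 library left out in turn, upregulated genes numbered from 215 to 276 and downregulated genes from 639 to 683, and 163 and 507 genes were DEGs in all 6 of these fits and with all wells. Over the 17 fits that kept the FDR and fold limits, the main fit among them, 141 of 230 upregulated and 436 of 647 downregulated DEGs were called in each. A DEG that a fit did not test counts as not called. The fit with the filter at 2 CPM tested only 10676 genes, and 186 and 552 of the DEGs were called there. Genes that passed 1 CPM in Con only numbered from 348 to 499, and in GA only from 132 to 213. The share of DEGs that rose was 26.2%, and it was 33.7% with cyclic loess and limma-trend and 24.8% without scaling beyond library size. The 4 named identifiers passed the FDR and fold limits in all 66 of their results over 17 alternative fits. In the main fit the filter had admitted each of the 4 through the group where it was high. ENSOARG00020008720 and ENSOARG00020013288 were not tested with the filter at 2 CPM.

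Same-numbered wells of Con and GA deviated from their group means with correlations over genes of -0.30, 0.06 and -0.18. Genes are not independent and the deviations within a group sum to 0, so these values cannot show whether the numbers pair the wells. A replicate block gave 227 upregulated and 639 downregulated genes, 223 and 634 of them shared with the fit without the block. The gene lists were not run for lack of symbols. Levels below 3 counts, at most 0.207 CPM, could not be ordered at this depth.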
